A study of Homo sapiens with 9 samples.

Results

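The nuclear genes for subunits of the mitochondrial respiratory chain were measured by RNA-seq in K562-FIRE cells. Members were the protein-coding genes whose GENCODE 29 symbols carry no hyphen and start with NDUFA, NDUFB, NDUFC, NDUFS or NDUFV and a digit, with UQCR, with COX4 to COX8 or with ATP5, or are SDHA to SDHD, CYC1 or CYCS. They were selected on a measured value in one respect: at least 10 counts were required in 1 or more of the 9 libraries. Of 90 genes that matched by name, 86 met this minimum, out of 58347 gene IDs in the table. By complex, they were 36 genes of complex I, 4 of complex II, 10 of complex III, 16 of complex IV, 18 of complex V, the electron carrier CYCS, and ATP5S, a related protein that is not a subunit. NDUFA4 and its paralog NDUFA4L2 were placed in complex IV, where the NDUFA4 protein sits. Just inside the minimum were COX7B2 with a highest count of 12, COX7A1 with 18, COX6B2 with 33 and NDUFA4L2 with 34. Just outside it were ATP5MGL with 6, COX8C with 5, COX4I2 with 3 and COX6A2 with 2.

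K562 is a human erythroleukaemia cell line with an erythroid character. All libraries came from K562 cells that carried the same transgenes under EF1a promoters: dCas9, a cleavage-dead Cas9 that binds DNA where a guide RNA directs it; MS2-Fkbp, which joins an MS2 coat protein to an FKBP domain; and SS18-Frb, which joins SS18, a subunit of the BAF chromatin remodelling complex, to an FRB domain. Rapamycin bridges FKBP and FRB, so that BAF can be drawn to the guide's target. The guide was directed at the promoter of the fetal globin gene HBG1 or was non-targeting, and cells received 10 nM rapamycin or DMSO for 24 h. There were 3 libraries with the HBG1 guide in DMSO, 3 with the HBG1 guide in rapamycin, 1 with the non-targeting guide in DMSO (numbered 2), and 2 with the non-targeting guide in rapamycin (numbered 1 and 2). The labels do not say whether replicates were separate cultures, so p-values measure the spread between these libraries only. Rapamycin also inhibits mTORC1 in any cell, and within the HBG1 guide its action as a dimeriser and its action on mTORC1 cannot be told apart.

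The respiratory chain moves electrons from NADH through complex I, and from succinate through complex II, to complex III, then by way of cytochrome c to complex IV, which reduces oxygen. The protons pumped along the way drive complex V, the ATP synthase. Most subunits are encoded in the nucleus and imported, while a core set of complexes I, III, IV and V is made from mitochondrial DNA, so that each of these complexes is built from transcripts of both genomes. Nuclear subunit genes often carry promoter elements for NRF1, for the ETS factor GABP and for YY1, and mTORC1 is known to act on mitochondrial gene expression through YY1 and on translation of some subunit mRNAs.

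Total counts ran from 19797409 to 31619671 per library, and the members took between 0.959% and 1.15% of them. HBG1, the gene at the guide's target, was at 296 ± 150 CPM (SD, n = 3), TMM-scaled counts per 1e6 counts of the library, with the HBG1 guide in DMSO and at 1930 ± 469 CPM (SD, n = 3) in rapamycin. With the non-targeting guide it was at 8233 CPM in the single DMSO library and at 8897 ± 65.3 CPM (SD, n = 2) in rapamycin. All 10 erythroid markers of the labelled cell type were detected well enough to be tested, with GATA1 between 190 and 274 CPM. With the HBG1 guide, 2 of the 10 markers, GATA1 and NFE2, were called higher in rapamycin and 1, TFRC, lower. Over all genes tested, 2.75% were called higher and 4.05% lower. The median log2 fold change of the 10 markers was 0.20, with 9 above 0 and 1 below. Of markers of other cell types, KRT5 was at 0 in every library, CDH1, CD3E, MS4A1 and CD79A were at or below 0.36 CPM, EPCAM was at 36.9 CPM or more and COL1A2 at 3.01 to 24.8 CPM. With the HBG1 guide, the 2 libraries numbered 1 stood apart from those numbered 2 and 3 in both treatments: the 10 erythroid markers summed to 16802 CPM against 10018 and 11088 CPM in DMSO, and to 19868 CPM against 10983 and 11860 CPM in rapamycin. The embryonic globin gene HBE1 made up most of these sums, at 12320 CPM against 6597 and 7541 CPM in DMSO. For calls and medians of the members, their complexes and the mitochondrial DNA encoded genes that turn on a library, values without that library are given. No such values are given for the other gene lists, for the members that separated library by library, or for rapamycin against DMSO with the non-targeting guide. The part that the erythroid difference has in the results was not tested.

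The respiratory chain genes differed little between rapamycin and DMSO with the HBG1 guide. CYCS, the mobile electron carrier, and ATP5MC1, one of 3 genes for the proton-carrying c subunit of ATP synthase, were called lower. So were NDUFS6 and NDUFA10, accessory subunits of complex I. The fitted falls of these 4 ran from 19.2% to 22.9%, and no member was called higher. Thus 4 of 86 members (4.65%) were called lower and 0 higher at an adjusted p under 0.05 in the quasi-likelihood test of edgeR, Benjamini-Hochberg adjusted over all 23675 genes tested. Over all those genes, 4.05% were called lower and 2.75% higher, so the members' share of lower calls was near the background. With upper-quartile scaling in place of TMM, the calls over all genes split into 819 higher and 673 lower, against 650 higher and 959 lower, and 2 members (CYCS and NDUFA10) were called lower. At an unadjusted p under 0.05 in edgeR's test with TMM, 14 members were lower and 2 higher. That was 16 of 86 members, against 4933 of all 23675 genes tested. The members' median log2 fold change was -0.06, against 0.02 over all genes tested, with 54 members below 0 and 32 above.

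**Figure D1:**
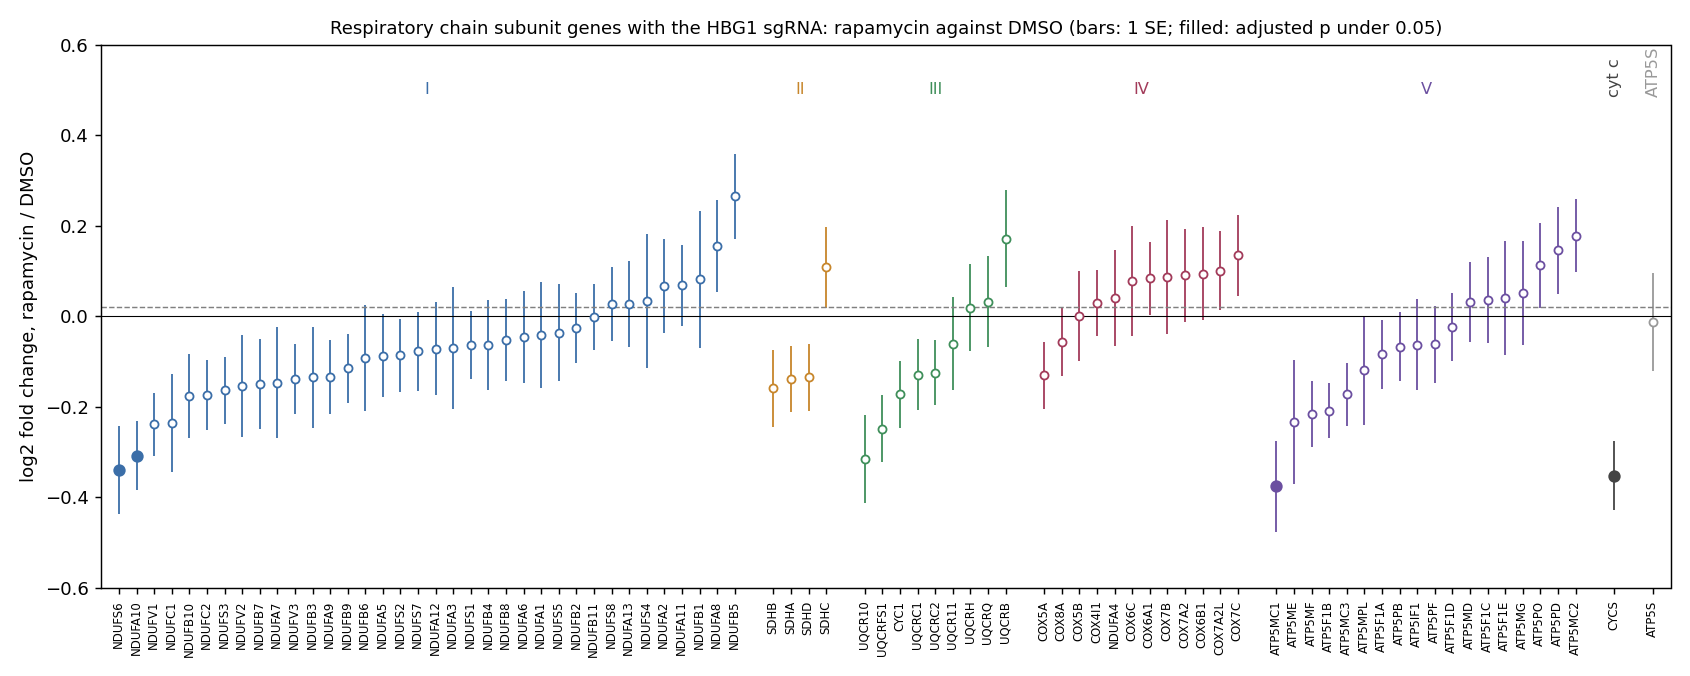
Log2 fold change of rapamycin over DMSO with the HBG1 guide for each of 81 members that had at least 10 CPM in every library, grouped by complex (x axis: gene; y axis: log2 fold change; bars: 1 SE; filled points: adjusted p under 0.05; dashed line: median of all genes tested). The 4 filled points, NDUFS6, NDUFA10, ATP5MC1 and CYCS, lie below 0, and 10 of the 12 complex IV genes shown do not.

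Because HBG1 libraries with the same number deviated together from their group means, the comparison was also fitted on the 6 HBG1 guide libraries alone, with the replicate number as a block. The same 6 libraries without the block gave 2 of 84 members called lower, CYCS and NDUFA10, and none higher. Over the 20179 genes tested in that fit, 789 were called lower and 588 higher. With the block, 9 of 84 members tested were called lower and 2 higher, against 9.62% lower and 7.43% higher over the 20179 genes tested. The 4 members named above remained lower. They were joined by UQCR10 and UQCRFS1 of complex III, the second being the Rieske iron-sulfur protein, by NDUFV1, the complex I subunit that binds NADH, by ATP5F1B, the catalytic beta subunit of ATP synthase, and by ATP5MF of its membrane part. NDUFB5, an accessory subunit of complex I, and ATP5MC2, another c-subunit gene, were the 2 higher ones. By complex, the block called 3 lower and 1 higher of 36 in complex I, 2 lower of 10 in complex III, 3 lower and 1 higher of 18 in complex V, and CYCS. It called none of 4 in complex II and none of 14 tested in complex IV.

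Library by library, the groups separated for a minority of members. In 15 members (17.4%) all 3 rapamycin libraries lay below all 3 DMSO libraries, a pattern seen in 13.1% of all genes tested, and in 1 member, NDUFB5, they lay above, against 12.2% of all genes. Of the 15, 6 belonged to complex I, 1 to complex II, 3 to complex III, 4 to complex V, and 1 was CYCS. Paired by number, 25 members were lower in rapamycin in 3 of 3 pairs, against 21.8% of all genes, and 5 were higher in 3 of 3 pairs, against 21.4%. The other 56 members had pairs of both signs or a level of 0 in a library, as COX7B2 had. Pair 2 differed from the other pairs: 70 members were lower in rapamycin in it, against 43 in pair 1 and 44 in pair 3, and the members' median log2 ratio was -0.16 in pair 2, 0.00 in pair 1 (0.00128) and -0.01 in pair 3.

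**Figure D2:**
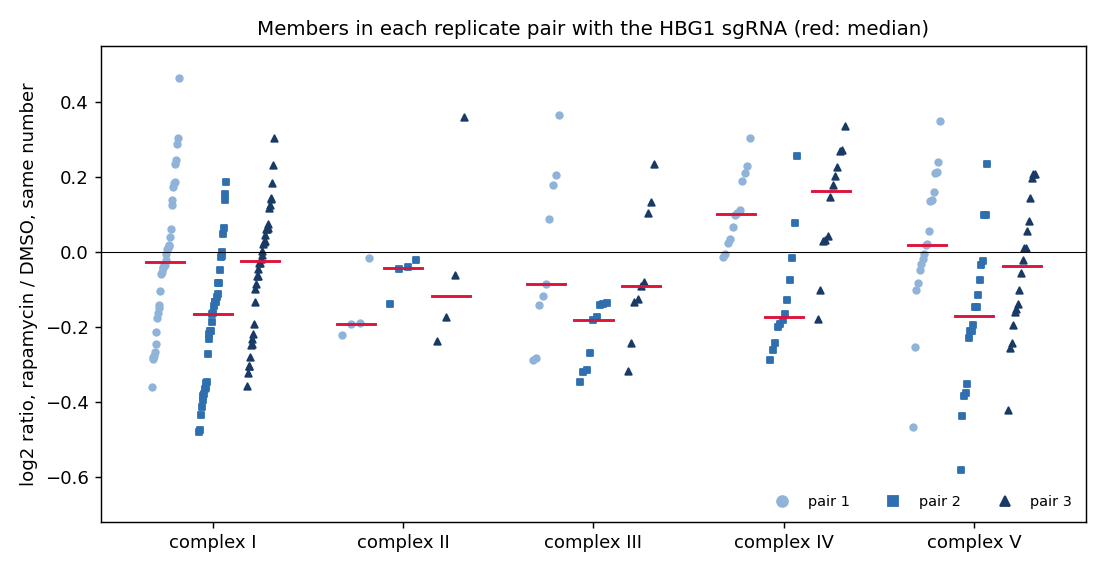
Log2 ratio of rapamycin to DMSO in each same-numbered pair of HBG1 guide libraries, for the members with at least 10 CPM, by complex (x axis: complex; y axis: log2 ratio; 1 point per gene; marker shape and shade: pair; red line: median). Pair 2 lies below pairs 1 and 3 in complexes I, III, IV and V, and complex IV has medians of 0.10, -0.17 and 0.16 in pairs 1, 2 and 3.

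Cytochrome c carries electrons from complex III to complex IV, and outside the mitochondria it triggers caspase activation. CYCS (ENSG00000172115, GRCh38 chromosome 7, 25120091 to 25125361, minus strand) was at 338, 355 and 307 CPM in the DMSO libraries numbered 1, 2 and 3 with the HBG1 guide, and at 255, 254 and 274 CPM in the rapamycin libraries. All 3 rapamycin libraries lay below all 3 DMSO libraries. The log2 fold change was -0.35 ± 0.08 (SE), with an adjusted p of 0.0112 in edgeR's test. CYCS lost its call in 1 of 13 alternatives, when DMSO replicate 2 was left out (adjusted p = 0.0803). With the non-targeting guide it was at 297 CPM in DMSO and at 245 and 220 CPM in rapamycin. GENCODE names 40 pseudogenes of CYCS, and how reads that match several of them were counted is not given in the sources used here.

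ATP synthase rotates a ring of c subunits in the inner membrane, and 3 nuclear genes encode the same mature c protein behind different import sequences. ATP5MC1 (ENSG00000159199, chromosome 17, 48892765 to 48895871, plus strand) was at 88.8, 76.6 and 66.3 CPM in DMSO replicates 1 to 3 and at 64.3, 58.7 and 56.1 CPM in rapamycin replicates 1 to 3 with the HBG1 guide. The groups did not overlap, but the lowest DMSO library was only just above the highest rapamycin library. ATP5MC1 changed by -0.38 ± 0.10 (log2, SE, adjusted p = 0.0326), and lost its call in 6 of 13 alternatives, with adjusted p up to 0.143. Its level with the non-targeting guide was lower in both treatments, at 57.3 CPM in DMSO and 45.3 and 47.2 CPM in rapamycin.

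The other two c-ring genes did not pass the same test. ATP5MC2 (ENSG00000135390, chromosome 12, 53632726 to 53677408, minus strand) was at 233, 197 and 220 CPM in DMSO and at 261, 232 and 243 CPM in rapamycin, and the lowest rapamycin library lay just below the highest DMSO library. Its log2 fold change was 0.18 ± 0.08 (SE, adjusted p = 0.212), and with the replicate block 0.19 ± 0.06 (adjusted p = 0.0272). ATP5MC3 (ENSG00000154518, chromosome 2, 175176258 to 175184607, minus strand) was at 334, 369 and 359 CPM in DMSO and at 327, 315 and 300 CPM in rapamycin, with no overlap, and its value was -0.17 ± 0.07 in log2 units (SE, adjusted p = 0.163). Summed over the 3 genes, the c ring was at 656, 643 and 645 CPM in DMSO and at 652, 606 and 600 CPM in rapamycin replicates 1 to 3, so that the summed levels overlapped. With the non-targeting guide, ATP5MC2 was at 194 CPM in DMSO and at 222 and 244 CPM in rapamycin, and ATP5MC3 at 347 CPM in DMSO and at 269 and 282 CPM in rapamycin. The direction of each c-ring gene was thus the one seen with the HBG1 guide.

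The 3 c-ring genes are shown by the last 228 coding bases of their GENCODE 29 transcripts, spliced. These bases encode the shared c protein and show where the 3 genes differ from each other. Capitals mark the 53 positions at which the 3 genes are not all alike. The stretches lie on GRCh38 within chr17:48895222-48895769 on the plus strand, chr12:53665314-53669260 on the minus strand and chr2:175178288-175179169 on the minus strand.
ATP5MC1: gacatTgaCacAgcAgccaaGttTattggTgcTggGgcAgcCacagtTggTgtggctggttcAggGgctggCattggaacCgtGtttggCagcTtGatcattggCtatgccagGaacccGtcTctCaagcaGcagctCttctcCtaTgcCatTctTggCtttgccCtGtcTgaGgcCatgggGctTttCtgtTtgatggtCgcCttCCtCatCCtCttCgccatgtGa
ATP5MC2: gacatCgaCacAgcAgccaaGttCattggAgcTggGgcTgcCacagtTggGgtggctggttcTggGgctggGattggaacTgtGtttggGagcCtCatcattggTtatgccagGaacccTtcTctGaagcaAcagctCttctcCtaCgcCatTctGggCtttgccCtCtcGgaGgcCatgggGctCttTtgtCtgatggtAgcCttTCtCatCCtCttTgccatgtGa
ATP5MC3: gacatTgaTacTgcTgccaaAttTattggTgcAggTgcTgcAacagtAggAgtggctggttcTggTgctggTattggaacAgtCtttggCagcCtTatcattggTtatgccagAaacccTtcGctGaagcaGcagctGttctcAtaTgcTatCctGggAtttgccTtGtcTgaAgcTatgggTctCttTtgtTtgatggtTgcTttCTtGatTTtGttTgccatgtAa
ATP5MC1 and ATP5MC2 differ at 25 of these bases, and ATP5MC3 differs from each of them at 43. None of the differences changes any of the 75 encoded residues. The longest run of bases shared by any 2 of the genes in this stretch is 17, so a longer read within it meets bases that set these genes apart. GENCODE also names 7 pseudogenes of ATP5MC1 and 3 of ATP5MC2, with which the stretch was not compared. Of all members, 46 have a named pseudogene.

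**Figure D3:**
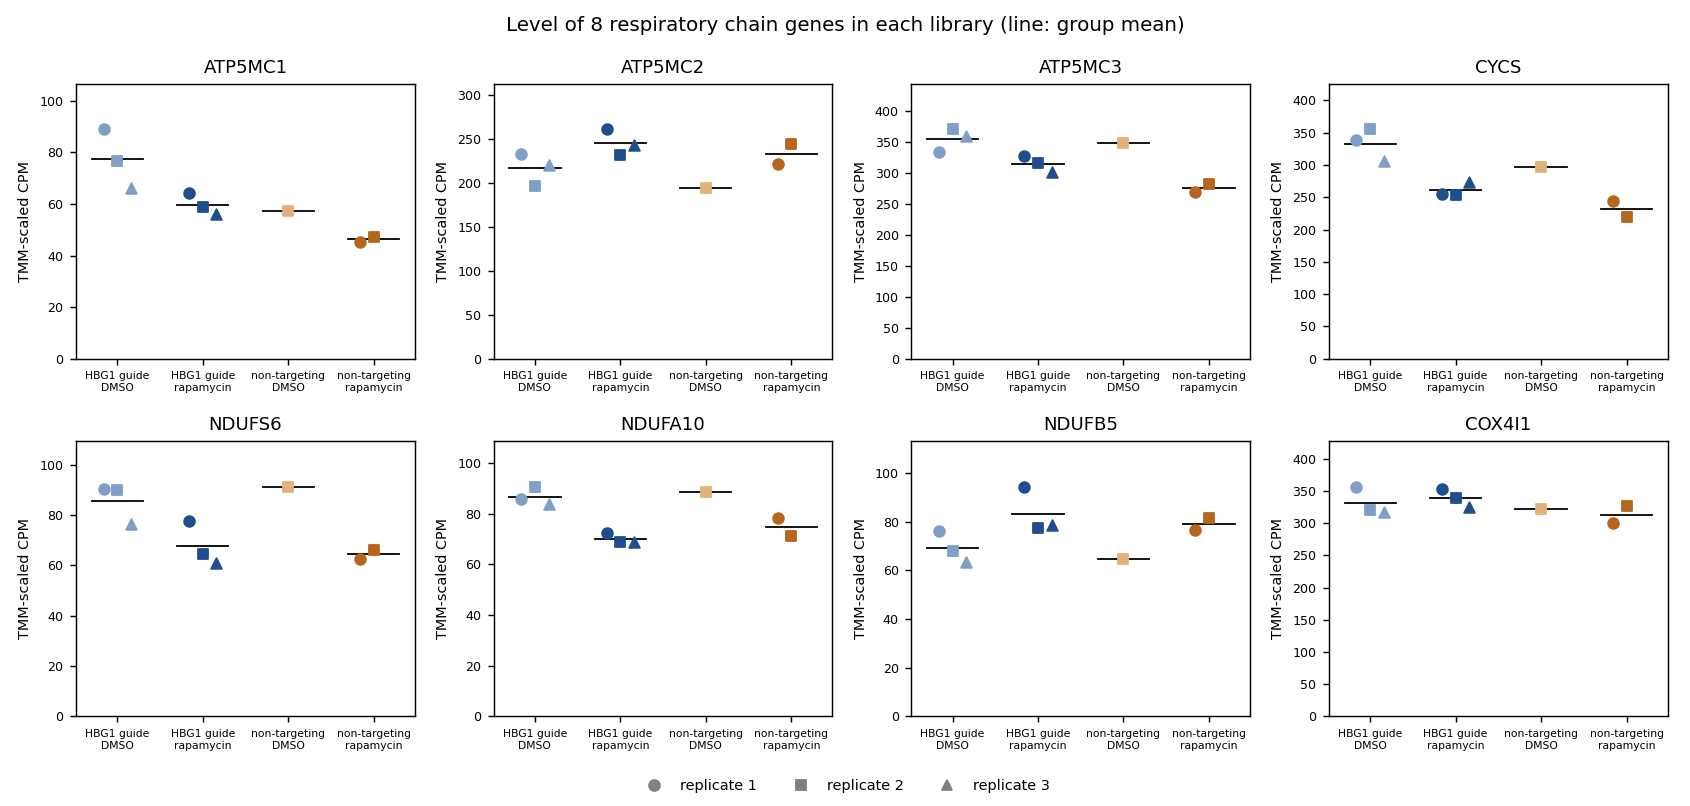
Level of 8 members in each of the 9 libraries (x axis: guide and treatment; y axis: TMM-scaled CPM, starting at 0; marker shape: replicate number; line: group mean). ATP5MC1, CYCS and NDUFA10 show no overlap between the HBG1 guide groups, NDUFS6 overlaps through rapamycin replicate 1, ATP5MC2 and NDUFB5 are higher in rapamycin with both guides, and COX4I1 overlaps.

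Complex I takes electrons from NADH. Of its 36 members, 2 were called lower and 0 higher, against 4.05% and 2.75% of all genes tested. The members' median log2 fold change was -0.07, with 28 members below 0. The median was -0.16 without rapamycin replicate 1, -0.03 without DMSO replicate 1 and -0.04 without rapamycin replicate 2, with 34, 24 and 20 members below 0. NDUFA10 (ENSG00000130414, chromosome 2, 239892450 to 240025402, minus strand), an accessory subunit, was at 85.7, 90.4 and 83.7 CPM in DMSO and at 72.3, 68.8 and 69.0 CPM in rapamycin. The groups lay well apart for their spread, and the log2 fold change was -0.31 ± 0.08 (SE, adjusted p = 0.0221), with the call lost in 4 of 13 alternatives at adjusted p up to 0.118. NDUFS6 (ENSG00000145494, chromosome 5, 1801400 to 1816605, plus strand), a zinc-binding accessory subunit, was at 90.3, 90.0 and 76.4 CPM in DMSO and at 77.8, 64.5 and 61.0 CPM in rapamycin. Rapamycin replicate 1 lay above DMSO replicate 3, so the groups overlapped. NDUFS6 changed by -0.34 ± 0.10 (log2, SE, adjusted p = 0.0472) and lost its call in 6 of 13 alternatives, at adjusted p up to 0.203.

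Among the 7 core subunits of complex I, which hold the flavin and iron-sulfur centres, 6 had values below 0 and none was called without the block. NDUFV1 was nearest, at 226, 207 and 214 CPM in DMSO and 186, 189 and 173 CPM in rapamycin, with no overlap (log2 fold change -0.24 ± 0.07, adjusted p = 0.0520). The summed level of the core subunits was 958, 860 and 870 CPM in DMSO and 865, 816 and 785 CPM in rapamycin. Of the 29 accessory subunits, 22 had values below 0. NDUFB5 (ENSG00000136521, chromosome 3, 179604690 to 179627647, plus strand) had the highest value of complex I. It was at 76.3, 67.8 and 63.7 CPM in DMSO and at 94.2, 77.2 and 78.6 CPM in rapamycin, with each rapamycin library above each DMSO library (log2 fold change 0.26 ± 0.09, adjusted p = 0.108 without the block and 0.00678 with it).

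Complex II, succinate dehydrogenase, also acts in the citric acid cycle and is encoded by nuclear genes alone. None of its 4 genes was called, and their median log2 fold change was -0.14, or -0.09 without DMSO replicate 1. The flavoprotein gene SDHA was at 161, 152 and 150 CPM in DMSO and at 138, 150 and 133 CPM in rapamycin, just without overlap (log2 fold change -0.14 ± 0.07, adjusted p = 0.294). The iron-sulfur subunit gene SDHB, the lowest of the complex, had -0.16 ± 0.08 (adjusted p = 0.306), and the membrane anchor gene SDHC, the highest, had 0.11 ± 0.09 (adjusted p = 0.549).

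Complex III passes electrons from ubiquinol to cytochrome c. None of its 10 genes was called without the block, and their median was -0.09, or -0.18 without rapamycin replicate 1, -0.02 without rapamycin replicate 2 and -0.14 without both libraries numbered 1. UQCR10, a small subunit, was at 54.2, 45.8 and 49.7 CPM in DMSO and at 44.5, 36.0 and 39.9 CPM in rapamycin, with no overlap (log2 fold change -0.32 ± 0.10, adjusted p = 0.0645 without the block and 0.00692 with it). UQCRFS1 was at 122, 117 and 111 CPM in DMSO and at 99.7, 93.3 and 101 CPM in rapamycin, also with no overlap (log2 fold change -0.25 ± 0.07, adjusted p = 0.0557 without the block and 0.0114 with it). The hinge subunit gene UQCRH and its intronless copy UQCRHL share 98.6% of 276 coding bases, including a run of 157 identical bases, so their counts are uncertain where reads match both. UQCRH had a log2 fold change of 0.02 ± 0.10 (adjusted p = 0.941), and UQCRHL, the highest value of the complex at 5.5 to 10.3 CPM in the 6 HBG1 guide libraries, had 0.18 ± 0.21 (adjusted p = 0.686).

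Complex IV, cytochrome c oxidase, had no call with or without the block. With the HBG1 guide its direction differed from that of the other complexes. Of its 16 genes, 12 had values above 0, with a median log2 fold change of 0.08. The same 12 to 4 split was found with RLE and upper-quartile scaling. COX7B2, COX7A1, COX6B2 and NDUFA4L2, among the 16, rest on few counts. With the non-targeting guide (2 libraries against 1, no test), 4 of the 16 were above and 12 below 0, with a median of -0.05. For the HBG1 guide, the split without rapamycin replicate 1 was 7 above and 8 below 0, with a median of -0.02. Without DMSO replicate 1 it was 13 above and 3 below, with a median of 0.14. Without both libraries numbered 1 it was 9 above and 5 below, with a median of 0.04. The sign of the median thus changed when only rapamycin replicate 1 was left out, and its size moved with the libraries kept. COX5A, which had the smallest p of the complex, was at 154, 159 and 160 CPM in DMSO and at 156, 134 and 141 CPM in rapamycin (log2 fold change -0.13 ± 0.07, adjusted p = 0.348). COX4I1, the widely expressed form of subunit 4, was at 356, 321 and 318 CPM in DMSO and at 353, 338 and 325 CPM in rapamycin (0.03 ± 0.07, adjusted p = 0.861). Both genes overlapped between the groups.

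Several complex IV subunits, and NDUFA4, have isoforms, most of them in pairs. In each pair 1 form carried nearly all of the counts. Of the 3 COX7A forms, COX7A2 and COX7A2L stood at similar levels. COX4I2, the lung form, had at most 3 counts and COX6A2, the heart and muscle form of subunit 6a, at most 2, while COX4I1 and COX6A1 were at 299 to 356 and 134 to 174 CPM over the 9 libraries. COX8C, a testis form, had counts in 1 library only, 5 of them, against 157 to 189 CPM for COX8A. COX7A1, the muscle form, had 9 to 18 counts per library, against 78.3 to 107 CPM for COX7A2 and 78.6 to 101 CPM for COX7A2L, which is also a factor in supercomplex assembly. COX6B2 and COX7B2, both testis forms, had 5 to 33 and 0 to 12 counts, and NDUFA4L2, which is induced in hypoxia, had 1 to 34. With the HBG1 guide COX7B2 had 6, 1 and 0 counts in DMSO and 12, 4 and 8 in rapamycin, and COX6B2 had 27, 16 and 25 in DMSO and 5, 7 and 33 in rapamycin. These set the highest and lowest fitted values of the complex, rest on too few counts for a fold to be given, and were not called (adjusted p = 0.371 and 0.613). All 86 members passed the low-count filter, these among them, since a single library with enough counts sufficed.

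In complex V, 1 of 18 genes was called lower, ATP5MC1, against 4.05% of all genes tested. The median of the 18 genes was -0.06, with 11 values below 0. Without rapamycin replicate 1 the median was -0.14, with 15 below 0, without rapamycin replicates 2 or 3 it was -0.01 and -0.02, and without DMSO replicate 1 it was -0.02. ATP5F1B was the most abundant member per length of exons, at 635 CPM per kb in DMSO with the HBG1 guide, and stayed so when the median length of coding transcripts was used. It was at 1183, 1187 and 1132 CPM in DMSO and at 993, 1024 and 1014 CPM in rapamycin, and the groups lay far apart for their spread (log2 fold change -0.21 ± 0.06, adjusted p = 0.0535 without the block and 0.0149 with it). The summed F1 part, the catalytic head that holds ATP5F1B, was at 2060, 1965 and 1903 CPM in DMSO and at 1863, 1746 and 1808 CPM in rapamycin. ATP5MF, of the membrane part, was at 183, 198 and 188 CPM in DMSO and at 171, 155 and 164 CPM in rapamycin (-0.22 ± 0.07, adjusted p = 0.0874 without the block and 0.0245 with it). ATP5IF1, the inhibitor that stops the enzyme from running backwards, was at 110, 107 and 98.3 CPM in DMSO and at 121, 92.8 and 89.3 CPM in rapamycin, with overlap (-0.06 ± 0.10, adjusted p = 0.785). Exons of ATP5ME, another membrane subunit gene, lie by 61.6% of their bases under another gene on the opposite strand, and the strand setting of the counting is not given in the sources used here.

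Summed over all members, the level was 11733, 11040 and 10687 CPM in DMSO and 11542, 9950 and 10460 CPM in rapamycin replicates 1 to 3 with the HBG1 guide. Replicate 1 was the highest of its group in both treatments, and the groups overlapped. Per complex, as a share of the mean of the HBG1 guide DMSO libraries, rapamycin replicate 1 was at 102% for complex I, 93.9% for complex II, 107% for complex III, 114% for complex IV and 101% for complex V. Rapamycin replicates 2 and 3 were at 88.7% and 91.8% for complex I, 94.2% and 92.0% for complex II, 87.0% and 92.8% for complex III, 92.5% and 102% for complex IV, and 89.3% and 92.7% for complex V. Complex II was the 1 complex in which all 3 rapamycin libraries lay below all 3 DMSO libraries. In these bulk libraries, fewer cells of a type and less RNA per cell cannot be told apart.

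The number of calls turned on single libraries. Without rapamycin replicate 1, 10 of 85 members were called lower, against 1023 of 23532 genes. Without both libraries numbered 1, an alternative chosen after seeing the data, 11 of 84 were, against 1201 of 23211 genes. Without DMSO replicate 2 no member was called, against 387 of 23293 genes called lower and 277 higher. Without rapamycin replicate 2 or rapamycin replicate 3 only CYCS was called lower, against 709 of 23536 and 395 of 23237 genes. Without DMSO replicate 1, CYCS and NDUFA10 were called lower and NDUFB5 higher, against 819 genes lower and 644 higher of 23270. The members' median log2 fold change ran from -0.13, without rapamycin replicate 1, to 0.00041, without rapamycin replicate 2.

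**Figure D4:**
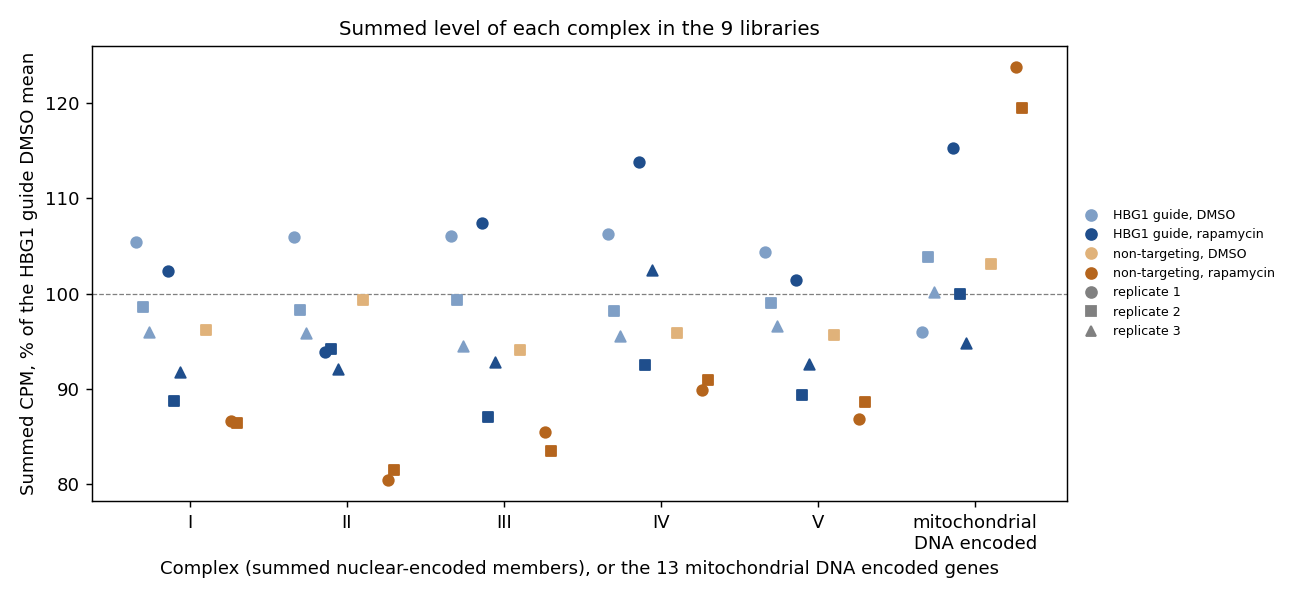
Summed TMM-scaled CPM of the members of each complex, and of the 13 mitochondrial DNA encoded genes, in each of the 9 libraries as a percent of the mean of the 3 HBG1 guide DMSO libraries (x axis: set; y axis: percent, not starting at 0; colour: guide and treatment; shape: replicate number). The 2 rapamycin libraries with the non-targeting guide lie lowest for each of the 5 complexes and highest for the mitochondrial DNA encoded genes.

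With the non-targeting guide, rapamycin could be set against DMSO only by 2 libraries against 1, with no test. Of the 86 members, 68 had lower and 18 higher values in rapamycin, with a median log2 difference of -0.15 against 0.03 over all genes. The split was 70 and 16 with RLE scaling and 63 and 23 with upper-quartile scaling. The 4 members that fell with the HBG1 guide were lower here too: CYCS by a log2 difference of -0.35, ATP5MC1 by -0.31, NDUFS6 by -0.50 and NDUFA10 by -0.24. SDHB had the lowest value of complex II, -0.55, at 91.9 CPM in DMSO and 63.8 and 61.6 CPM in rapamycin. Over the 81 members whose mean log2 CPM reached 3, 45 were lower and 8 higher with both guides, 21 were lower with the non-targeting guide alone and 7 with the HBG1 guide alone. Across these 81 genes, which are not independent replicates, Pearson's r between the changes with each guide was 0.653 and Spearman's rho 0.636. The 2 comparisons share no library, though all were scaled together.

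**Figure D5:**
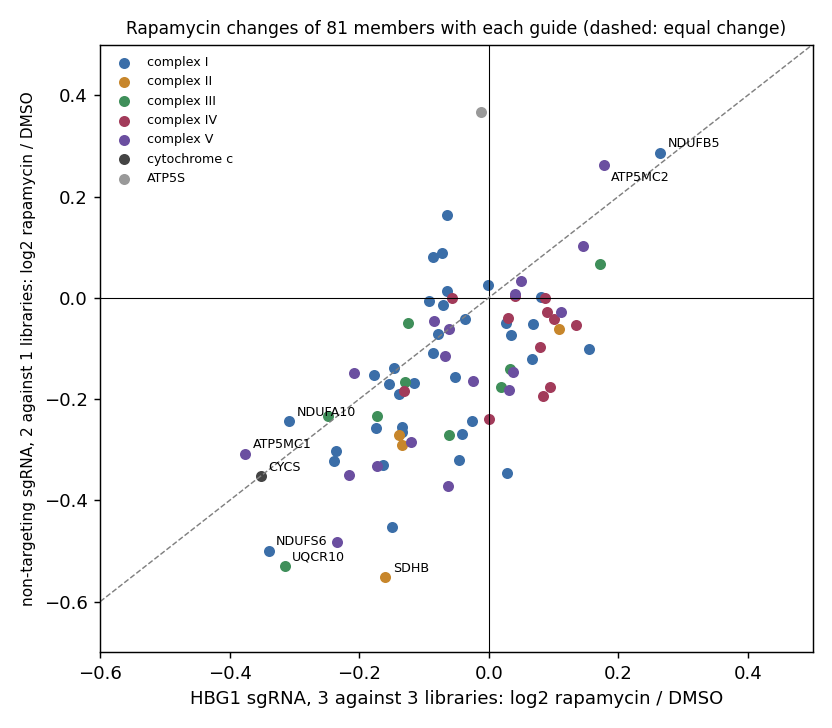
Log2 difference between rapamycin and DMSO for 81 members with the HBG1 guide (x axis, 3 against 3 libraries) and with the non-targeting guide (y axis, 2 against 1 libraries, no test), coloured by complex (dashed line: equal change). CYCS lies on the line at -0.35 with both guides, NDUFB5 and ATP5MC2 lie above 0 with both, and SDHB lies below the line.

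The change with the HBG1 guide was tested against that with the non-targeting guide as an interaction. The single library with the non-targeting guide in DMSO was assumed to vary like the other libraries. No member was called by edgeR's test, against 0.00422% of all genes higher and 0% lower. The smallest adjusted p among members was 1. SDHB and NDUFA13 were the 2 of 86 members with an unadjusted p under 0.05, against 678 of all 23675 genes tested. Both had a less negative or more positive change with the HBG1 guide. A difference in response between the guides was thus not detectable for any member at this number of libraries. For CYCS the difference was 0.00 on the log2 scale (-0.000333) and for ATP5MC1 it was -0.07.

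Under rapamycin, the HBG1 guide libraries held more of the members' RNA than the non-targeting ones, gene by gene in small steps. Values were higher with the HBG1 guide for 77 of 86 members, with a median log2 difference of 0.17 against 0.01 over all genes, and no member was called, against 0.0169% of all genes higher and 0.0127% lower. At an unadjusted p under 0.05 in edgeR's test, 23 of the 86 members were higher and none lower. Over all 23675 genes tested, 1484 reached that p in either direction. The smallest adjusted p among members was 0.773. NDUFA13, an accessory subunit of complex I with the smallest p, was at 128, 111 and 109 CPM with the HBG1 guide and at 86.6 and 91.0 CPM with the non-targeting guide, without overlap (log2 difference 0.38 ± 0.11). UQCRH was at 391, 304 and 320 CPM against 273 and 257 CPM (0.36 ± 0.11). Both were named after their values were seen, and both were called, at adjusted p of 0.0396 and 0.0366, when no low-count filter was applied. ATP5MC1 (0.37 ± 0.11), UQCR10 (0.35 ± 0.11) and SDHB (0.31 ± 0.10) followed. Without HBG1 guide rapamycin replicate 1 the members' median was 0.07, with 62 of 85 members higher, so that library carried much of the difference. The summed erythroid markers also differed, at 10983 to 19868 CPM with the HBG1 guide and 6069 to 7290 CPM with the non-targeting guide. Most of that sum was HBE1, with a log2 difference of 1.89, while the median of the 10 markers was 0.04, 8 of them were above 0 and 1 was called. The part of the erythroid markers in the result was not tested.

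Under rapamycin, the 13 subunit genes of mitochondrial DNA went the other way between the guides. All 13 were lower with the HBG1 guide than with the non-targeting guide, with a median log2 difference of -0.23, and none was called. They summed to 48962, 42428 and 40244 CPM with the HBG1 guide and to 52570 and 50716 CPM with the non-targeting guide, so the groups did not overlap. All 13 stayed lower under each alternative run for this comparison. In DMSO, the single non-targeting library summed to 43788 CPM, within the range of the HBG1 guide libraries. Between rapamycin and DMSO with the non-targeting guide (2 libraries against 1, no test), 10 of the 13 were higher and 3 lower, with a median of 0.26. In the interaction, 12 of the 13 values were below 0 and 1 above, with a median of -0.18, and none was called. Between rapamycin and DMSO with the HBG1 guide none of the 13 was called, the median was 0.02 with 8 above and 5 below 0, and the sums of 40768 to 44070 CPM in DMSO overlapped with those in rapamycin. Without rapamycin replicate 1 the median was -0.04, with 3 above and 10 below 0, and without both libraries numbered 1 it was -0.09, with 1 above and 12 below. Without DMSO replicate 1 it was 0.01, and it reached 0.08 without DMSO replicate 2, 0.04 without DMSO replicate 3, 0.05 without rapamycin replicate 2 and 0.07 without rapamycin replicate 3. These transcripts carry short poly(A) tails, and the libraries were made from RNA caught on poly-T beads.

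Assembly factors, which build the complexes, were listed beside the subunits. Of 25 assembly factors of complex IV, 5 were called lower and 1 higher between rapamycin and DMSO with the HBG1 guide, against 4.05% lower and 2.75% higher over all genes tested. With the replicate block, 6 were called lower and 2 higher, against 9.62% and 7.43%. The largest in level was LRPPRC, which stabilises mitochondrial mRNAs, at 352 ± 8.54 CPM in DMSO and 270 ± 6.32 CPM in rapamycin (SD, n = 3; log2 fold change -0.38 ± 0.07, adjusted p = 0.00249). COA7 fell by 0.49 (adjusted p = 0.00961) and TACO1, a translational activator of the COX1 subunit, by 0.41 (adjusted p = 0.0167) on the log2 scale. COA3, named after its value was seen, was the 1 that rose, by 0.33 (adjusted p = 0.0240). Complex I assembly factors had 2 of 17 lower, NDUFAF4 (-0.51, adjusted p = 0.0258) and NDUFAF2 (-0.42, adjusted p = 0.0302), and those of complex III had 1 of 6 lower, BCS1L, which inserts the Rieske protein (-0.39, adjusted p = 0.0379). None of 4 factors for complex II was called, with or without the block, and of 5 for complex V none was called without the block and 1 was called lower with it.

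Of 13 tested regulators of mitochondrial gene expression, 3 were called lower and none higher, against 4.05% lower over all genes tested, and PPARGC1A was not tested. They were PPRC1, a coactivator of the PGC-1 family (-0.44 ± 0.08, adjusted p = 0.00548), TFAM, which packages and transcribes mitochondrial DNA (-0.35 ± 0.07, adjusted p = 0.00652), and POLRMT, the mitochondrial RNA polymerase (-0.30 ± 0.08, adjusted p = 0.0278). The block called 6 of the 13 lower, against 9.62% of all genes in that fit. TFAM was at 150 ± 3.21 CPM in DMSO and 118 ± 4.27 CPM in rapamycin (SD, n = 3). Of 16 citric acid cycle and pyruvate dehydrogenase genes, 2 were called lower by edgeR's test, IDH3A (-0.43 ± 0.09, adjusted p = 0.00796) and DLAT (-0.34 ± 0.08, adjusted p = 0.0154). With the block, 5 of the 16 were called lower. Over all genes, 4.05% were called lower without the block and 9.62% with it. The median of the regulators was -0.17 and that of the citric acid cycle genes -0.15, against -0.06 for the respiratory chain members.

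Promoters were read from RefSeq for GRCh38.p14, from 250 bases before to 50 after the start, and 68 of the 86 members matched. The NRF1 core GCATGCGC, on either strand, stood in 15 of the 68 (22.1%), against 3.68% of 27305 genes. The ETS core CCGGAAGT stood in 12 (17.6%, against 4.95%) and the YY1 core AAGATGGCG in 9 (13.2%, against 2.14%). The 27305 genes were not filtered by gene type or expression, while the members are protein-coding genes that met a count minimum. The part of this in the differing shares was not tested. A match is a description of the letters and not a binding site. The 15 members with the NRF1 core had a median log2 fold change between rapamycin and DMSO of -0.06, as had the 53 without it. For the ETS core the medians were -0.03 with and -0.07 without, and for the YY1 core -0.08 with and -0.06 without.

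Promoters of 2 members that fell and hold the NRF1 core, CYCS and NDUFS6, are shown beside those of the c-ring genes ATP5MC1 and ATP5MC2, whose fold changes had opposite signs. Each runs 250 bases before to 30 bases after the start, and capitals mark the NRF1 core, which begins 169 bases before the start in CYCS, 46 in NDUFS6 and 40 in ATP5MC2, the last in 1 of 3 RefSeq start windows. None of the 3 motifs was found in the ATP5MC1 window. They lie at chr7:25125231-25125510 on the minus strand, chr5:1801157-1801436 on the plus strand, chr17:48892537-48892816 on the plus strand and chr12:53676054-53676333 on the minus strand.
CYCS: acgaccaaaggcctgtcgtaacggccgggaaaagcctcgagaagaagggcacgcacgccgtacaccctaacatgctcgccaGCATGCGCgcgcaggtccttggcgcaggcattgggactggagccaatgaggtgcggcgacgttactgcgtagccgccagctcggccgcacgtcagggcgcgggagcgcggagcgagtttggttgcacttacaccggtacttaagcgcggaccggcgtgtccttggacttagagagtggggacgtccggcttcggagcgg
NDUFS6: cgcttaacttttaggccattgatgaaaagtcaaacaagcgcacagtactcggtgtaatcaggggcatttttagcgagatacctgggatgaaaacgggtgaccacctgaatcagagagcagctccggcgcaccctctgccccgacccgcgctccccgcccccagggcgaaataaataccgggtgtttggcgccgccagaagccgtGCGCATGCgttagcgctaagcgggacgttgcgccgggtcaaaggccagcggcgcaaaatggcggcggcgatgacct
ATP5MC1: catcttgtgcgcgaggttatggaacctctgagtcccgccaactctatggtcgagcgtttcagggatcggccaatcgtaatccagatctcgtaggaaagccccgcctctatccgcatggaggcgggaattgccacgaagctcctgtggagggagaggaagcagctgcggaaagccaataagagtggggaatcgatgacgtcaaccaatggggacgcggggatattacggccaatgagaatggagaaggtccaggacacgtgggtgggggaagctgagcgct
ATP5MC2: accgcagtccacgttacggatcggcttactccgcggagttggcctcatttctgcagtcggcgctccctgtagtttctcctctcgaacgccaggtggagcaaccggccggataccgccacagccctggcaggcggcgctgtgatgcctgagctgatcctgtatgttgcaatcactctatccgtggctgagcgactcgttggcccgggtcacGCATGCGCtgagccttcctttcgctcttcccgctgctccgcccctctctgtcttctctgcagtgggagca
These promoters were picked for the core or for the c ring. Of the 4 members that fell, CYCS and NDUFS6 hold the core, and ATP5MC1 and NDUFA10 hold none of the 3 motifs in this window.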

How the data were processed

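Counts per gene were deposited by the authors as a table of whole numbers, 1 column per library, with no column of another sample. The submitters' processing notes name STAR 2.7.3a, featureCounts of Subread 2.0.0, R 4.1.2, limma 3.34.9, edgeR 3.24.0 and GRCh38/hg38, with no roles. The annotation release, strand setting and treatment of reads with several matches are not given in the sources used here, and depth is as above. Of 58347 IDs, 58039 took a GENCODE 29 symbol.

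The members and lists were chosen with earlier results of these data known. Named members were, per complex, the called ones by smallest p (up to 5, or the 2 of smallest p), the highest and the lowest fold change, the c-ring genes, the isoform sets and ATP5IF1. From other lists they were the called genes, up to 3.

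All 9 libraries were fitted with edgeR 4.0.16 in R 4.3.3 (filterByExpr with a minimum count of 10, TMM, quasi-likelihood test), 1 mean per group, and p-values were Benjamini-Hochberg adjusted over 23675 genes and called under 0.05. CPM are TMM-scaled. Scripts were tested on simulated counts. Same-numbered HBG1 guide libraries had correlated deviations from the group means (r = 0.553, 0.278 and 0.231 over 11498 genes, limit 0.1), so the numbers were taken as pairs. Libraries numbered 2 and 3 also correlated across numbers (r = 0.258 and 0.194), so this check sets number 1 apart more than it separates 2 from 3. No 2 libraries of a group agreed within sampling noise. Alternatives were RLE and upper-quartile scaling, no filter, DESeq2 1.42.0, fewer libraries and the block.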

Additional observations from a re-analysis of the deposited data

How the results depend on the processing

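Between rapamycin and DMSO with the HBG1 guide, 4 members were called lower and 0 higher. Lower calls numbered 2 with upper-quartile scaling and with the 6 HBG1 guide libraries alone, 9 with DESeq2, 9 with those 6 libraries and the replicate block and 11 without both libraries numbered 1. Higher calls numbered 1 without a filter and 2 with the replicate block. Leaving out 1 library gave 0 to 10 lower and 0 to 1 higher calls. The causes were not tested, except that fewer libraries entered some fits. Over all genes, calls came to 650 higher and 959 lower of 23675 tested. With DESeq2 they were 875 and 1304 of the 14954 genes given an adjusted p. The 6 HBG1 guide libraries alone gave 588 and 789 of 20179, and 1500 and 1941 of 20179 with the replicate block. With no filter they were 959 and 1197 of 38129, and without DMSO replicate 2, 277 and 387 of 23293. Without rapamycin replicate 1 they were 708 and 1023 of 23532, and without both libraries numbered 1 they were 909 and 1201 of 23211. Between the guides under rapamycin, 2 members were called higher without a filter, and the members' median of 0.17 ran from 0.0746 to 0.2254 with 1 library left out and was 0.0744 without both libraries numbered 1. The replicate block changed no call of a member in that comparison or in the interaction. No called member changed direction under any alternative run. Of the 81 members with at least 10 CPM in DMSO, the 95% interval of the rapamycin change reached 0.20 to either side on the log2 scale (median) without adjustment for the number of genes, and this is not a limit of detection.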
